A study of Drosophila melanogaster with 2 samples.

Results

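The 6 genes described here are tara, Tlk, CG11050, CG13323, px and osp, chosen as carriers of high Dati-eGFP chromatin immunoprecipitation signal in an intron, between genes or at an internal start site. The osp place lies between genes by annotation, but only 214 bp upstream of the 1 annotated osp start site, and so at a promoter. The genes were selected on the signal of the pooled thresholded list and on position, so signal, rank and distance below are descriptions without a test. The 6 genes are among 13945 protein-coding genes of the 6 arms, and their leading places are 6 of 1892 thresholded places there. Every place in each gene and 20000 bp around it was followed in the pooled and in both replicate lists.

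The embryos were whole transgenic Drosophila melanogaster aged 8 to 24 hours, by the source name, with an insertion that targets dati and yields a fusion of Dati with enhanced green fluorescent protein. The 2 biological replicates made up a single group, both precipitated with an anti-GFP antibody, and 1 control alignment served both. Sonicated chromatin had a labelled size range of 200 to 800. Whole embryos mix all tissues, so binding in few cells and weak binding in many cannot be told apart.

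Dati (datilografo) is a zinc finger protein known from the fly nervous system. A core promoter is the short stretch around a start site where the transcription machinery assembles. Binding farther away, in introns or between genes, can fall in enhancers, insulators or silencers, and a signal in a peak list does not tell these apart.

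The bases under the leading summits are shown for 4 of the 6 genes. Each window is the summit base and 50 bp to each side on the forward strand of the RefSeq Release 6 assembly (dm6). The CG13323 and px windows, not shown, also share short stretches with other summits. The tara window (chr3R:16222432-16222532) and the osp window (chr2L:14689504-14689604) show matches to known motifs in capitals, on either strand. In tara these are CTCTC, the reverse complement of the GAGA letters, running into an E-box, then ATGGC, the reverse complement of the Pho core, and a further E-box. In osp they are an E-box between TATA-box letters, on both strands.
tara: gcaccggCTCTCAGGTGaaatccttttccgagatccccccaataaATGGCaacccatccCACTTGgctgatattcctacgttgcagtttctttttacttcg
osp: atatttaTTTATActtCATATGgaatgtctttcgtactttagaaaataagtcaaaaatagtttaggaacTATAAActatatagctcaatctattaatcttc
The Tlk window (chrX:3742176-3742276) and the CG11050 window (chr2L:6612658-6612758) held no letters of the 12 motifs searched. Their capitals mark words of 8 letters that also occur, on either strand, at another of the 6 summits.
Tlk: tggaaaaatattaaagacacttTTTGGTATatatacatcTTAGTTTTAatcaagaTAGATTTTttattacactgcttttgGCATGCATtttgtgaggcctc
CG11050: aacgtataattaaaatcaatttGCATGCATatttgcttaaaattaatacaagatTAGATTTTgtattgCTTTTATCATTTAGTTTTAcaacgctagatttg

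The 6 leading places had pooled signals of 622.0 for px, 607.4 for CG11050, 559.0 for CG13323, 534.7 for tara, 478.1 for Tlk and 180.5 for osp. The signal is the authors' own value per peak, on a scale not given in the sources used here. By rank in the thresholded set, px was number 7, CG11050 10, CG13323 11, tara 13 and Tlk 18. Osp stood far below them at rank 182. These 6 places were in the thresholded set of each replicate alone and in the conservative set as well, and none overlapped an annotated transposable element. Bases masked as repeats in the assembly made up 25.7% of the CG11050 place, 19.0% for CG13323 and 16.4% for Tlk. They made up 14.8% for osp, 10.9% for px and 0% for tara.

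**Figure D1:**
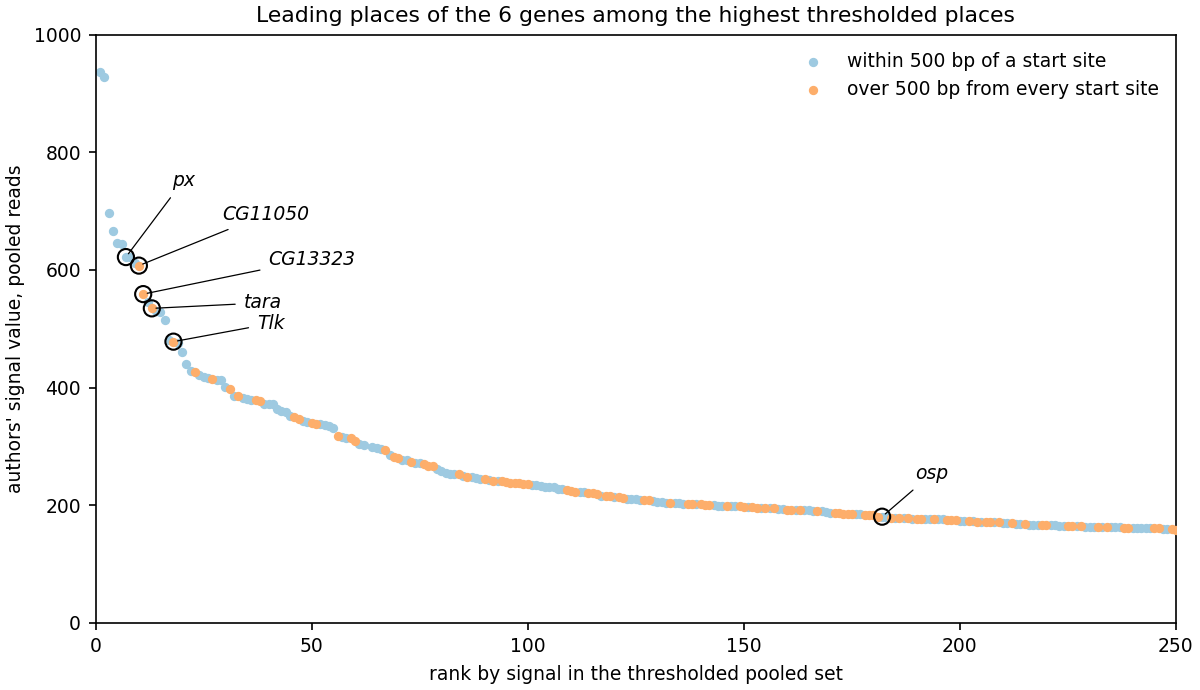
Signal of the thresholded places (vertical axis, the authors' value for pooled reads) against their rank (horizontal axis), with the 6 leading places circled. Blue points lie within 500 bp of a start site and orange points farther away; 5 circles sit between 478.1 and 622.0 and osp at 180.5.

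The positions only partly bear out a description as places away from core promoters. A limit of 500 bp from the nearest annotated start site of any gene was passed by 4 of the 6, namely tara, Tlk, CG11050 and CG13323. The px summit was 198 bp upstream of an internal start site of px itself, and the osp summit 214 bp upstream of the 1 annotated start site of osp. For osp the data therefore go against the description: its place is at its own promoter.

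Tara (taranis, FBgn0040071, 3R 16225651 to 16260329, plus strand) encodes a SERTA domain protein of the trithorax group. Its leading place (3R 16222408 to 16222578, summit 16222482) lay between genes, 3169 bp upstream of the first tara start site and 913 bp upstream of the noncoding gene lncRNA:CR45643. Replicate 1 gave 276.2 and replicate 2 gave 261.2, ranks 19 and 12 of their lists. The ratio of replicate 2 to replicate 1 was 0.946.

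Tlk (FBgn0283657, X 3720007 to 3789770, plus strand) encodes Tousled-like kinase, a serine/threonine kinase that acts on the histone chaperone Asf1. Its place (X 3742125 to 3742289, summit 3742226) was in an intron of 8 of the 14 Tlk transcripts, 2329 bp downstream of an internal start site at 3739897. The intron measured 41450, 56783 or 60007 bp depending on the transcript. Replicate 1 gave 279.9 (rank 18) and replicate 2 gave 201.2 (rank 29), so replicate 1 was the higher.

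CG11050 (FBgn0031836, 2L 6611011 to 6617117, plus strand) is a gene named by its annotation number. Its place (2L 6612616 to 6612806, summit 6612708) differed in kind from that of Tlk, since it was centred on a small intron. Intron 2 of all 3 transcripts is 140 bp long there, and the summit was 68 and 73 bp from the flanking exons, so the 191 bp of the place reached into both. The summit was 1021 bp downstream of the last of 3 CG11050 start sites. Replicate 1 gave 340.2 (rank 7) and replicate 2 gave 258.0 (rank 15).

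CG13323 (FBgn0033788, 2R 13044695 to 13047256, minus strand) is likewise known by number. It had the most remote place of the 6 (2R 13035248 to 13035431, summit 13035349), 9346 bp beyond the 3' end of the gene and 11907 bp from its start site. On the other side, the next gene was Su(z)2, a Polycomb group gene, 27438 bp away. The place is named after CG13323 by nearness alone. Replicate 1 gave 297.1 (rank 16) and replicate 2 gave 259.1 (rank 14).

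Px (plexus, FBgn0003175, 2R 22494297 to 22562065, minus strand) encodes a nuclear protein known for its part in patterning the wing veins. Its place (2R 22514212 to 22514404, summit 22514297) was inside a 35108 bp intron of 5 of the 6 px transcripts and just upstream of the start of the remaining one, at 22514099. Replicate 1 gave 319.5 (rank 13) and replicate 2 gave 303.8 (rank 7). The ratio of replicate 2 to replicate 1 was 0.951, about that of tara.

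Osp (outspread, FBgn0003016, 2L 14599196 to 14689340, minus strand) is a long gene known for a held-out wing phenotype, and Adh, the alcohol dehydrogenase gene, lies inside its span. Its place (2L 14689422 to 14689685, summit 14689554) was the weakest of the 6. Replicate 1 gave 124.4 (rank 108) and replicate 2 gave 55.6 (rank 481). Both values were below those of the other 5 genes in the same replicate, and the replicates were proportionally farther apart than for any other member.

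Averaged over the 2 replicates, signal was 311.7 ± 11.1 (SD, n = 2) for px, 299.1 ± 58.1 for CG11050, 278.1 ± 26.9 for CG13323, 268.7 ± 10.6 for tara, 240.6 ± 55.7 for Tlk and 90.0 ± 48.7 for osp. Neighbours in this order overlapped in their replicate values from px down to Tlk, and the values of Tlk and osp did not. Px was above CG13323, tara and Tlk in both replicates without overlap. Taken across replicates, the values of CG11050 overlapped with those of px, CG13323, tara and Tlk. Compared within each replicate, CG11050 and CG13323 were above Tlk in both. They had 340.2 and 297.1 against 279.9 in replicate 1, and 258.0 and 259.1 against 201.2 in replicate 2. Between CG11050 and each of px, CG13323 and tara, the order changed from replicate 1 to replicate 2. Signals of the 2 replicate lists may be on different scales, so the SD includes any offset between the lists.

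Dividing replicate 2 by replicate 1 gave a median of 0.815 over the 6 places, from 0.447 for osp to 0.951 for px. Over 1852 thresholded places matched in both replicate lists the median was 0.897, with 5% of places below 0.455 and 5% above 1.75. Osp was at percentile 4.59 of that distribution and Tlk, with 0.719, at percentile 28.0. For the 20 highest places, which include all the leading places but that of osp, the median was 0.814, with 5% below 0.645 and 5% above 0.953. Px (0.951) and tara (0.946) were near that upper limit, and CG11050 (0.758) and CG13323 (0.872) nearer the median. Summits of the replicates were 2 to 6 bp apart at all 6 places.

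**Figure D2:**
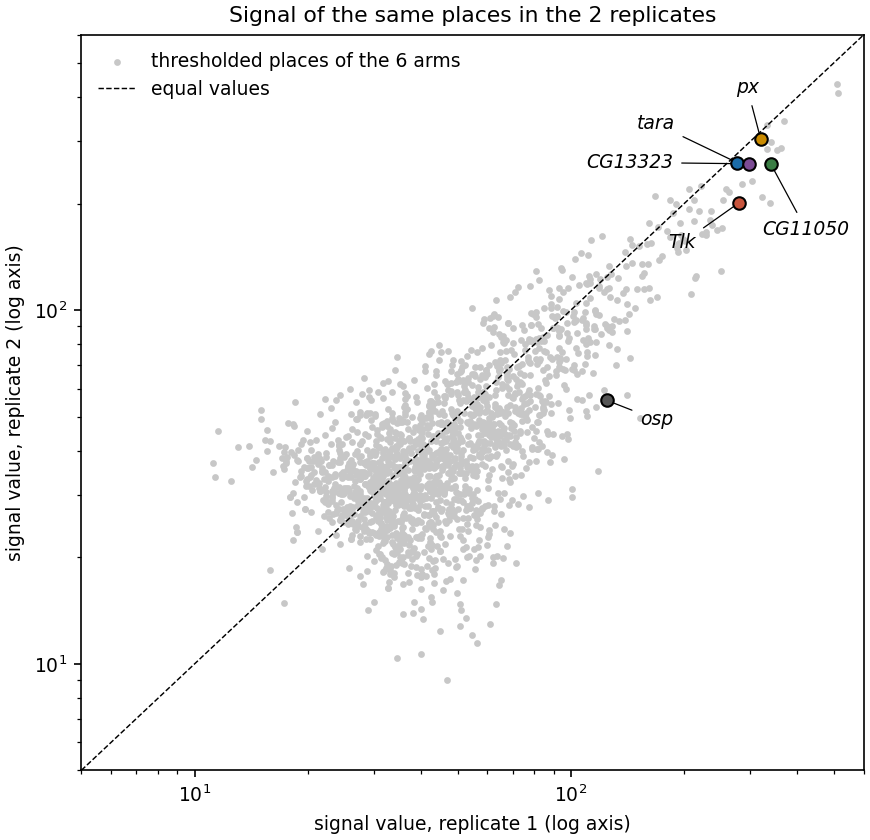
Signal in replicate 2 against replicate 1, both on log axes, for thresholded places matched in both lists (grey) and the 6 leading places (coloured); the dashed line marks equal values. The 5 high places lie together near the line, and osp lies below it at 124.4 and 55.6.

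The places whose signals were most like those of a member in both replicates were mostly within 500 bp of a start site. So were most places of high signal, since only 4 of the 20 highest thresholded places were farther away. Likeness was the distance between the pairs of log2 signals of the 2 replicates, over all other matched thresholded places. Tara and CG13323 were each other's nearest, at 0.11 log2 units. Nearest to px was a place 92 bp upstream of CenG1A, at 0.09, and nearest to CG11050 one 114 bp upstream of Art3, at 0.14. Tlk was nearest to a place just downstream of the start of Chro (0.14) and osp to one 409 bp downstream of the start of Ptp4E (0.10). The second nearest were PNPase (0.21) for tara, tank (0.14) for Tlk, mRpL41 for CG11050 (0.15) and px (0.11), CG5611 (0.16) for CG13323 and foxo (0.11) for osp. The foxo place was 3332 bp upstream of the foxo start.

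Among the 1018 thresholded places over 500 bp from every annotated start site, CG11050, CG13323, tara and Tlk held the 4 highest signals, in that order. The next below was in an intron of CG32772, at 426.9 against 478.1 for Tlk, and the one above Tlk was tara. Such places were 4 of the 20 highest (exact 95% interval of the share 5.73 to 43.7%) and 13 of the 50 highest (14.6 to 40.3%). They were 82 of the 200 highest (34.1 to 48.2%) and 53.8% of all 1892 (51.5 to 56.1%). Within the thresholded set, the 4 genes thus had places of a kind that was common in the whole and less common at the top. The pooled ranked list had 2 more such places in this range, near cbt (765.0, above all 4 genes) and Lk6 (562.4). Both are absent from the thresholded set, and the shares above do not count them. Why they are absent was not tested.

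Beyond these 4, another 9 places among the 50 highest were over 500 bp from every start site. Those nearest to a protein-coding start site of CG32772 (426.9), osa (413.9), HmgZ (396.9), CycB (385.5), sp3 (378.9), CG31668 (377.5), Trl and CG42507 (350.0), CG3726 (347.4) and Adf1 (340.5) made up this group. Of all 13, 7 were in introns, 5 between genes and 1 in an exon of the noncoding gene lncRNA:CR46035. Trl encodes the GAGA factor, osa a subunit of the Brahma chromatin remodelling complex, and CycB a mitotic cyclin.

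The leading place, chosen for its signal, was also the highest of its window in the pooled ranked list and in each replicate list. The next highest place in the pooled ranked list had 182.7 for tara, 121.6 for Tlk, 107.3 for CG11050, 55.7 for CG13323, 86.2 for px and 78.4 for osp. The leading signal was therefore 2.93 times the next for tara, 3.93 for Tlk, 5.66 for CG11050, 10.04 for CG13323, 7.22 for px and 2.30 for osp. In the pooled list CG13323 stood most alone, and tara and osp least. For osp the margin was wide in replicate 1, at 124.4 against 33.1 for the second place. It was narrow in replicate 2, at 55.6 against 42.4. In replicate 2 px stood more alone (303.8 against 31.1) than CG13323 (259.1 against 43.3). Median signals of all ranked places in a window were 18.9 to 23.1 in the pooled list.

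**Figure D3:**
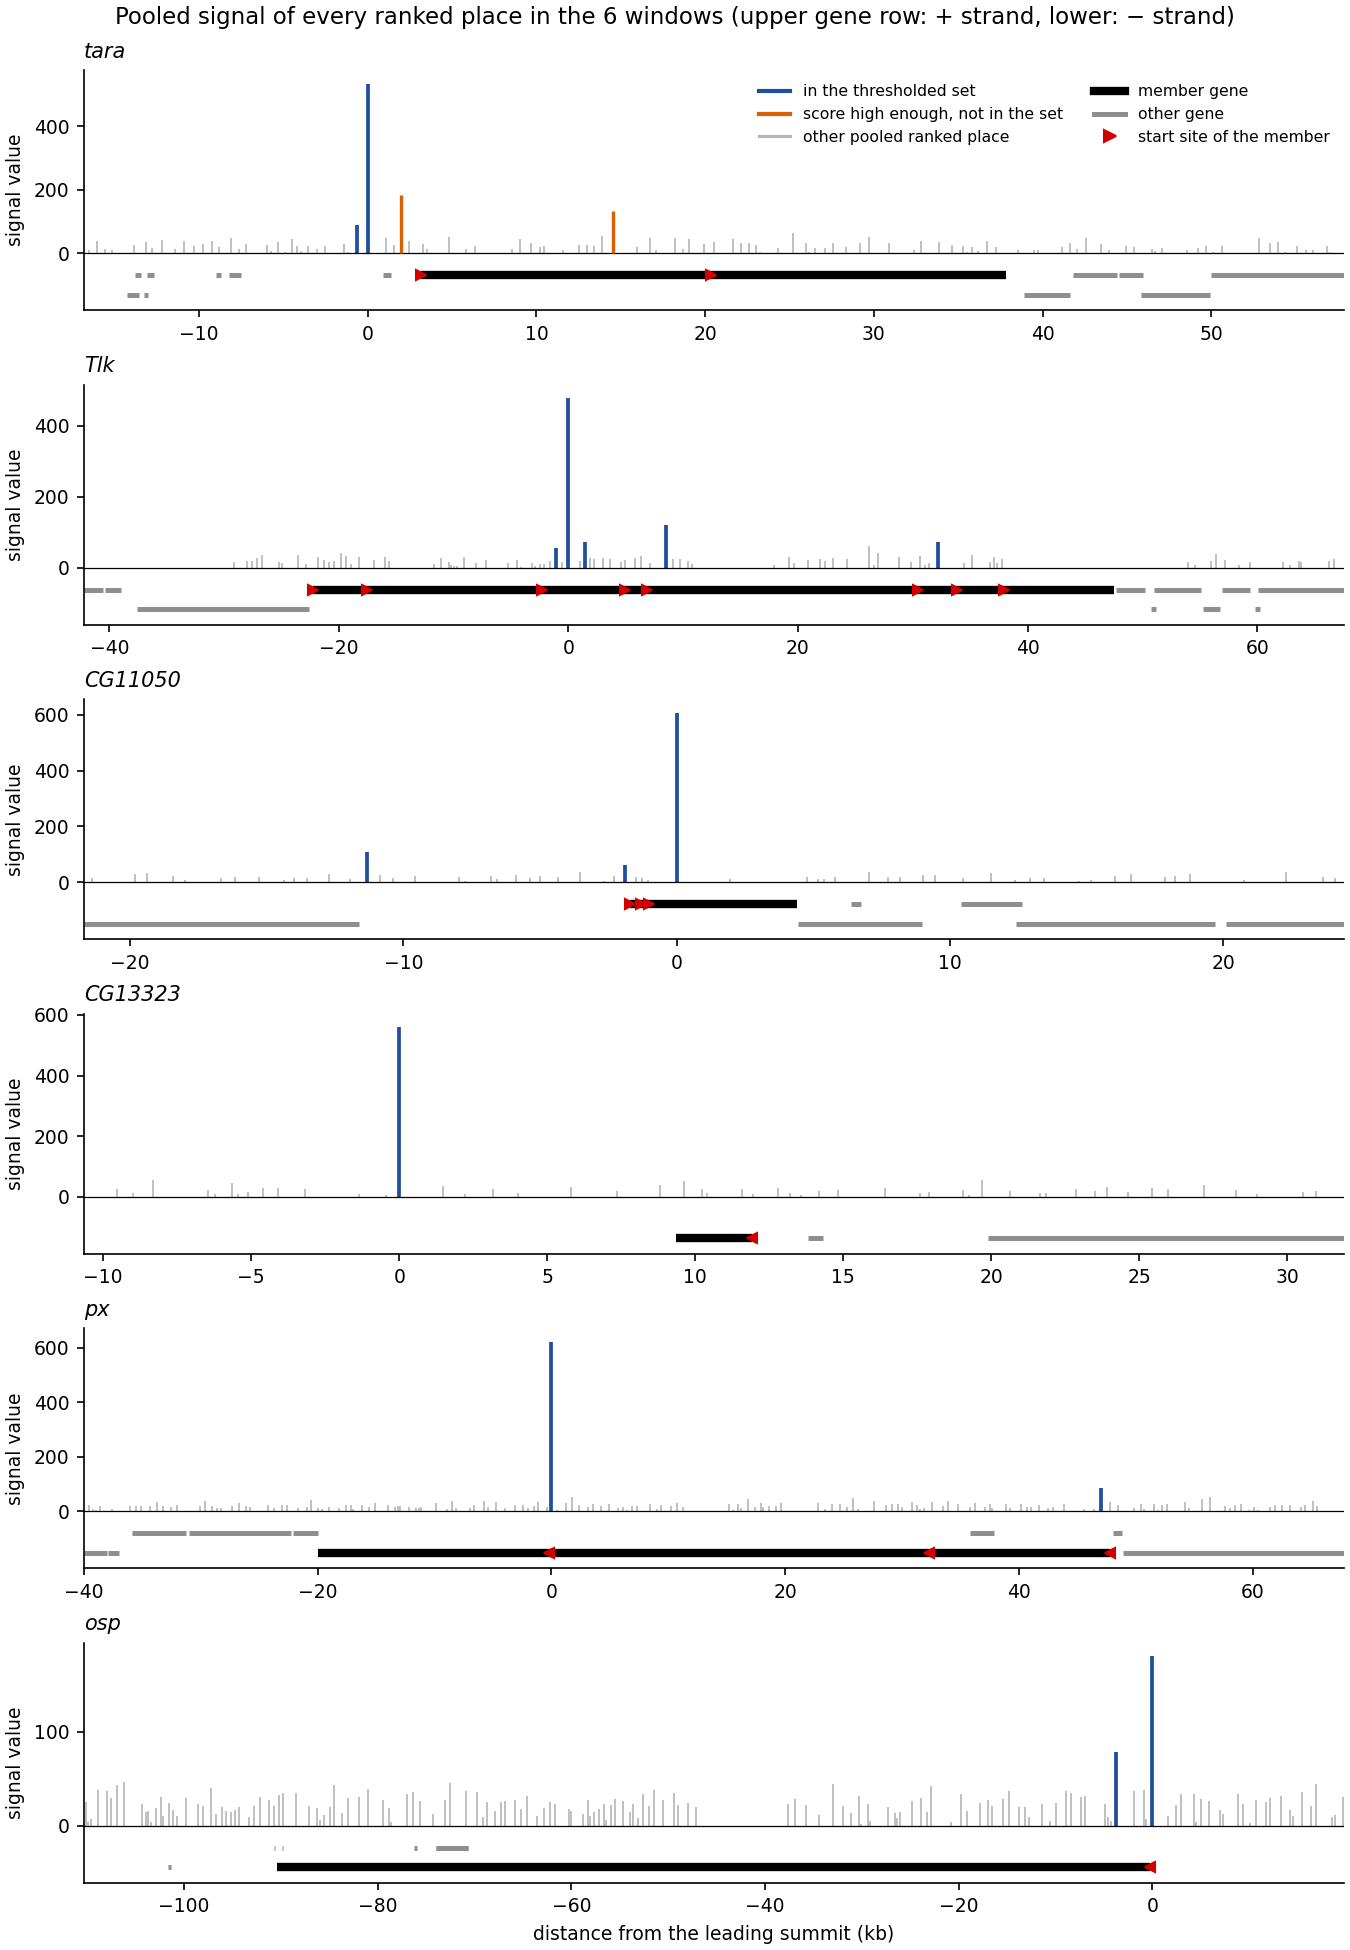
Pooled signal (vertical axis) of every ranked place against its distance in kb from the leading summit (horizontal axis), 1 panel per gene, with genes drawn below on their strand and start sites of the member as red arrowheads. Blue lines are thresholded places, orange lines places with a sufficient score outside the set; in each panel 1 line dominates, with 182.7 as the tallest second line (tara).

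The 6 windows, 511.0 kb in all, held 636 ranked places of the pooled list, and 15 of these were in the thresholded set, 2.36% against a background of 1.23% over the arms. The count includes the 6 places the genes were selected on, so the excess is not a result about the genes. By gene there were 5 of 92 ranked places in Tlk (5.43%), 3 of 59 in CG11050 (5.08%) and 1 of 51 in CG13323 (1.96%). There were 2 of 113 in tara (1.77%), 2 of 160 in px (1.25%) and 2 of 161 in osp (1.24%). The shares of px and osp were about that of the arms, and each count includes the leading place. In replicate 1 alone, 13 of 484 ranked places were thresholded, 2.69% against 1.13%. Replicate 2 gave 11 of 528, 2.08% against 0.712%. Ranked places themselves were about as dense in the windows as elsewhere, at 12.4 per 10 kb against 11.5 over the arms in the pooled list, 9.47 against 7.97 in replicate 1 and 10.3 against 9.01 in replicate 2.

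Tlk had 5 thresholded places, each in an intron, among 92 pooled ranked places (5.43% against 1.23% over the arms). That is 0.456 per 10 kb of its window, against 0.651 for CG11050 and 0.141 over the arms. The count includes the leading place, on which the gene was selected. The place at summit 3750702, 8476 bp downstream of the leading one, had a pooled signal of 121.6, with 59.2 in replicate 1 and 64.9 in replicate 2. Those at 3774450 (72.4), 3743713 (71.2) and 3741162 (55.5) were weaker. None of the 5 was within 500 bp of any of the 8 Tlk start sites. In the set of replicate 1, 4 of them were present, and in that of replicate 2 only the 2 highest. At 3743713 the replicates diverged, with 57.2 in replicate 1 and 20.1 in replicate 2.

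In the tara window, a second thresholded place lay 659 bp before the leading one (summit 16221823, signal 89.6, with 50.99 in replicate 1 and 43.2 in replicate 2). A pair of stronger places were in none of the thresholded sets although their scores were above the lowest score of the pooled set, 830. The first, at summit 16224470 and 1181 bp upstream of the tara start, had 182.7 pooled, 122.0 in replicate 1 and 67.6 in replicate 2. The other, at 16237006 in a tara intron, had 134.4, 88.0 and 47.2. With such places counted, the windows held 17 of 636 pooled ranked places, against a background of 1953 of 154044 (1.27%) over the arms. The 17 include the 6 leading places, on which the genes were selected. The deposited documentation lists 1 more source file for thresholded sets than for ranked lists. Its content was not used here, and why these places are absent was not tested.

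CG11050 had thresholded places also at its first start site, 202 bp upstream (signal 61.5, 24.2 in replicate 1 and 41.2 in replicate 2), and 300 bp upstream of its neighbour Dpp10 (107.3, 66.6 and 42.8). The intronic place was thus 5.66 times the Dpp10 one. Px had a second thresholded place 792 bp downstream of its first start site (86.2), which was high in replicate 1 (66.0) and low in replicate 2 (19.9). Osp had a second in an intron, 3500 bp downstream of its start (78.4, with 33.1 in replicate 1 and 42.4 in replicate 2). Here the order of the replicates was the reverse of that at the leading osp place. CG13323 had no second thresholded place in the pooled set, while the set of replicate 2 had one at summit 13055037 (43.3 there, 16.6 in replicate 1).

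The genes have 18 annotated start sites together, and 3 of these had a thresholded summit within 500 bp: the first of CG11050, the internal one of px and that of osp. Over all protein-coding start sites of the arms, 1291 of 19252 had one, or 6.71%. The px and osp ones are the leading places the genes were selected on, so 1 of the other 16 start sites had such a summit. The highest place within 500 bp of the tara start sites had a signal of 30.0 and 33.8. For the Tlk start sites with any ranked place, 6 of 8, the values were 10.8 to 31.5. The first px start site, shared by 4 transcripts, had 34.5 and the second 33.5, and the start site of CG13323 had 25.7. All of these values were far below the leading places of the same genes, which were chosen as the highest. The median of the pooled ranked list over the arms was 18.3. By rank, the highest of these values, 34.5 for px, was 13099 of the 156658 pooled ranked places.

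**Figure D4:**
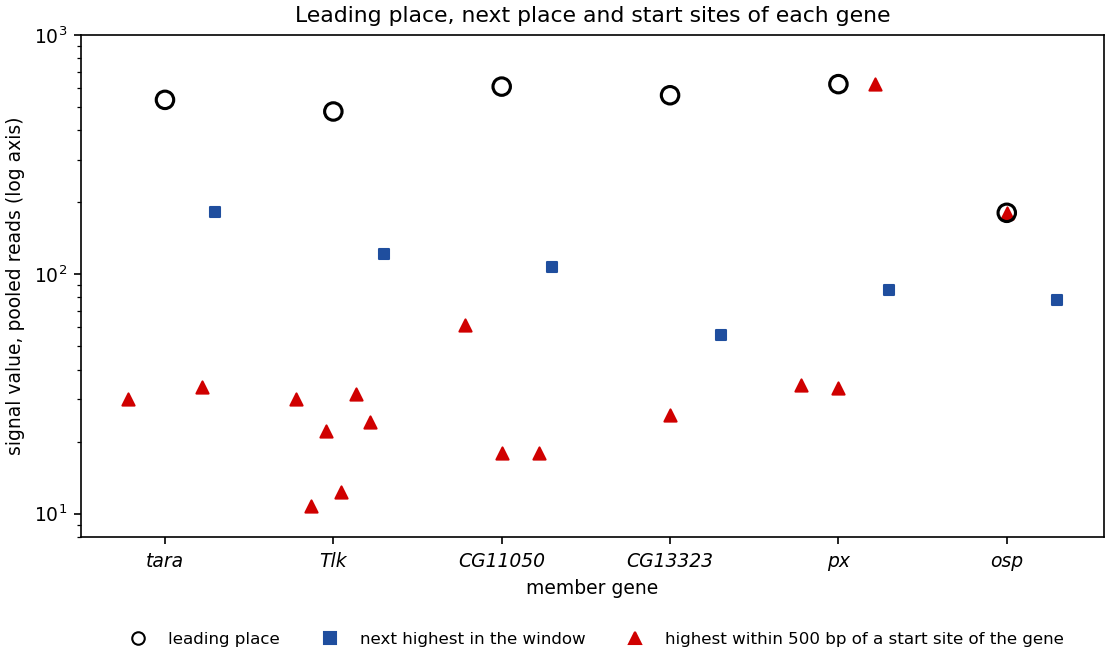
Pooled signal (log axis) for each gene of its leading place (open circle), the next highest place in the window (blue square) and the highest ranked place within 500 bp of each of its start sites (red triangles). For tara, Tlk and CG13323 the triangles lie between 10.8 and 33.8, and for px and osp 1 triangle is the leading place itself.

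Within 1000 bp of the leading summit, the pooled list held 0 further ranked places for CG11050, 1 for tara and CG13323, and 2 for Tlk, px and osp. Within 5000 bp it held 9 to 17, beside the 12.4 per 10 kb of the windows as a whole. The 1 within 1000 bp of the tara summit was in the thresholded set. The leading places were narrow, 165 to 193 bp for all but osp, which had 264 bp. That is the largest width in the set and was taken by 93.2% of the 1892 thresholded places, but by 0 of the 50 highest. The narrow form was therefore shared with the other high places.

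Base composition set tara apart from the rest. In the same windows, 50 bp to each side of the summit, G and C made up 48.5% for tara, 31.7% for px, 29.7% for CG13323, 28.7% for Tlk and 22.8% for both CG11050 and osp. The median was 34.7% over all thresholded places, 34.7% away from start sites and 30.7% among the 20 highest. All but tara were below the first of these medians. For CG11050 and osp the value equalled the 5% quantile of all thresholded places.

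**Figure D5:**
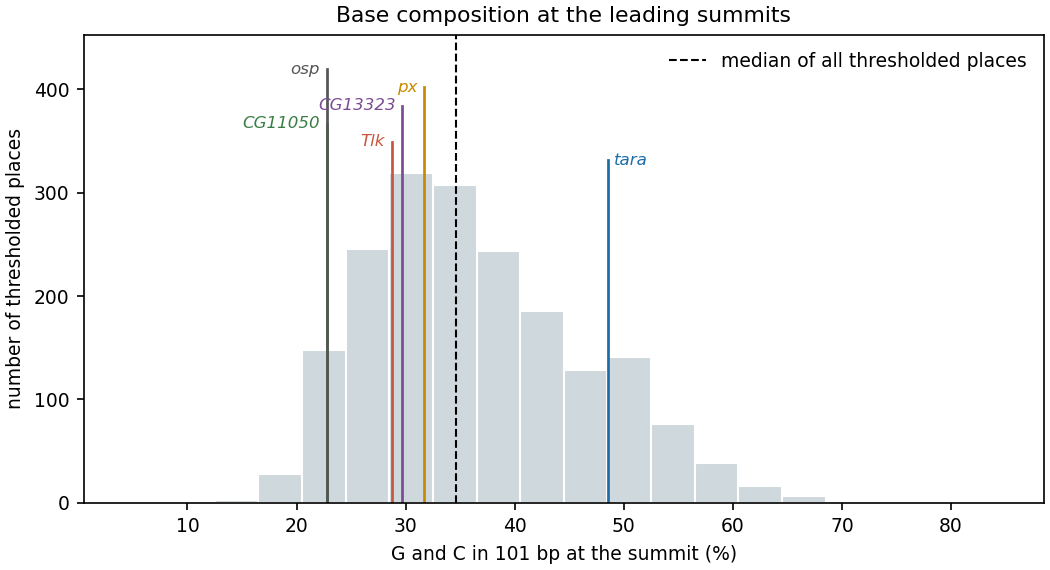
Histogram of the percentage of G and C within 50 bp of the summits of all thresholded places (vertical axis, number of places), with the 6 leading places as coloured lines whose height has no meaning, and the median as a dashed line. Tara, at 48.5%, is to the right of the median of 34.7% and the other 5 to the left.

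An E-box (CANNTG, the site of basic helix-loop-helix proteins) was present in 4 of the 6 windows, those of tara, CG13323, px and osp, against 37.2% of all thresholded windows. In px it began 3 bp before the summit and covered the summit base, and in tara there were 2 of them. GAGA letters (GAGAG) and the Pho core (GCCAT) were found in tara alone among the 6, against 10.4% and 15.96% of all. TATA-box letters (TATAAA) were found in osp, against 18.2% of all. All were searched on both strands, and a match is a description of letters, not a bound site.

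None of the 6 windows held the DRE (TATCGATA, 1.16% of all), the BEAF-32 core (CGATA, 13.5%), which is contained in the DRE, Motif 1 (GGTCACAC, 0.899%), the Zelda site (CAGGTAG, 0.476%), the Su(H) site (GTGGGAA, 1.00%), the CTCF letters (AGGTGGCGC, 0.793%), a run of 8 A (7.08%) or a CA repeat (CACACACA, 1.37%). Tlk and CG11050 held none of the 12, and both were rich in A and T.

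No long stretch was common to the 6 summits. Of 540 different words of 8 letters in their windows, 16 occurred at 2 or more and 3 at 3 or more. The word ATGCATGC was shared by Tlk and CG11050 and occurred in 4 of the 1892 thresholded windows, 0.211%. The longest stretch shared by any pair was 12 bp, between CG11050 and CG13323, and tara shared at most 7 bp with any other. The words were found by comparing these windows, so their rarity has no test.

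At dati itself (FBgn0262636, chromosome 4), the pooled thresholded set held 0 places in the gene and 20000 bp around it. The pooled ranked list had 7 there, with a highest signal of 52.4, below the leading places of all 6 genes. Replicate 1 had 32 ranked places there and replicate 2 had 1, with highest signals of 39.1 (rank 1192) and 36.8 (rank 1145). The place of 39.1 was in the thresholded set of replicate 1 alone.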

How the data were processed

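Peak lists of 2 biological replicates of anti-GFP ChIP-seq (1 group) were used. The authors deposited them on build dm6, per the labels. Neither the aligner nor the peak caller is given in the sources used here. The deposited lists give for each place a signal value (the authors' own, on an unstated scale), a score (the IDR, the rate at which ranks fail to repeat, on a negative log2 scale that ends at 1000), the IDR as −log10, and the summit as an offset in bp, another deposited column. Replicates were listed alone and pooled, and thresholded sets were the authors'. A further 32 columns without a replicate name were not used. Depth is unknown, since the lists carry no counts. Exact intervals (Clopper-Pearson, 95%) cover counting error only.

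Places were assigned by summit to the gene span and 20000 bp around it, on 6 arms. Start sites came from Ensembl release 115 without transposable elements (RefSeq start sites as an alternative added after seeing the data), and sequence from Release 6, whose arms contained all places. A place was away from core promoters beyond 500 bp. Replicate places were matched by at least 1 bp. Python 3.11.15, numpy 2.4.6, pandas 2.3.3, scipy 1.17.1 and matplotlib 3.10.9 were used. The code was tested on simulated places.

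The leading place was the thresholded place of highest signal in the gene or nearest to its start. The other genes named were dati, the 2 places most like each leading one, genes with a start site within 1000 bp of a thresholded summit in a window, places away from start sites among the 50 highest, and those directly above and below the lowest leading one. Members and lists were chosen with earlier results of these data known. Alternatives were other flanks, sets, limits, overlap rules, windows and each replicate alone.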

Additional observations from a re-analysis of the deposited data

How the results depend on the processing

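No paired analysis was possible because there was 1 group and no contrast. The 15 thresholded places became 26 with a flank of 50000 bp. They numbered 13 with a flank of 5000 bp, 18 in the conservative set and 17 by score, and 11 to 13 in a single replicate's set. Without replicate 1, Tlk had 2 and not 5, px and osp 1 and not 2, and CG13323 2 and not 1. Without replicate 2, osp had 1. In the conservative set CG13323 had 3 and not 1, tara 4 and not 2, and px 1 and not 2. With a flank of 5000 bp CG13323 had 0, since its leading place lies farther out. Ranked density was 9.47 to 10.3 per 10 kb in single replicates. The median rank of the leading places, 14 in the pooled list, was 14.5 to 17 in single replicates, and 4.5 among pooled places over 500 bp from every start site (4 of the 6 genes). In that list 2 higher places outside the thresholded set stood among them, near cbt (765.0) and Lk6 (562.4). The number of the 50 highest away from start sites went from 13 to 8 places with a limit of 1000 bp and to 16 with 250 bp. The 7 pairs of gene and motif became 12 with 100 bp to each side and 5 with 25 bp. RefSeq start sites, added after seeing the data, left 4 of 6 places over 500 bp. In all, 20 of 23 alternatives for summary results stayed within 1.5 times (counts) or within the spread or interval (other values, among them the change from 13 to 8, judged as a share of 50), and 41 of 54 for single genes. The 41 include the other overlap rules and the merging of overlapping places, which changed no single-gene value at all. Unknown depth and 2 libraries limit what a value at a single place can show.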
